A study of Homo sapiens with 11 samples.

Results

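Integrins are receptors at the cell surface, each made of one α and one β subunit, that bind proteins of the extracellular matrix outside the cell and tie them to the actin cytoskeleton inside it. Laminins are large secreted proteins of the basement membrane, each a trimer of one α, one β and one γ chain, and they are ligands of several integrins. In melanoma both families are known for their part in how cells hold on to, and move through, the matrix around them. The genes described here are 35 genes of these families, taken by name with earlier results of these data known. They are 25 integrin subunits and 10 laminin chains, of 61542 genes in the tables.

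Poly(A) RNA was sequenced from SK-MEL-103, a long-established line of human melanoma cells. The cells were kept for 6 days with the solvent DMSO (n = 4), with 0.25 µM etoposide, a topoisomerase II poison (n = 4), or with 0.5 µM tozasertib, an inhibitor of the Aurora kinases (n = 3), and medium with drug was renewed on day 3. The study used both drugs as triggers of senescence, in which cells stop dividing for good, and the comparison asks how far the genes for matrix receptors and their ligands changed in that state. All groups, controls included, are the same cell line. The labels do not say whether replicates came from separate cultures, and the p-values therefore rest on a spread that may be technical. In bulk RNA, fewer cells with a transcript and less of it per cell cannot be told apart.

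Samples held 27882689 to 56534763 reads. Levels of a gene across samples are given as CPM, the share of reads on that gene scaled to a common total with the TMM factors of edgeR, as mean ± SD. Fold changes are those of the edgeR quasi-likelihood fit, given as log2 with the standard error (SE), and a gene was called, and is said to have risen or fallen, at a Benjamini-Hochberg adjusted p under 0.05 over all 17033 genes tested. Levels of different genes are compared only as TPM, which divides by transcript length. Of 8 melanoma markers, 5 were tested. The transcription factor genes SOX10 (514 CPM in DMSO, 323 in etoposide and 380 in tozasertib) and PAX3 (29.2, 18.9 and 24.9 CPM) fell in both drugs, while MITF (7.69, 9.45 and 9.26 CPM) and S100B (1.18, 2.19 and 3.31 CPM) rose in both. Of the pigment genes, PMEL was at 0.326 CPM in DMSO and 0.405 in etoposide and rose to 3.86 in tozasertib (adjusted p = 9.79e-07). It reached 0.319 CPM, the level of the filter described below, in fewer than 3 DMSO samples (0.276, 0.604, 0.187 and 0.236 CPM). PMEL was thus tested through the treated samples, and this call is no support for a rise. MLANA was at 0 in every sample, and TYR and DCT were below 1 CPM. Of 9 leukocyte markers, 8 were below 1 CPM in every sample and the list summed to 0.314 to 1.58 CPM. Of 7 fibroblast markers, 4 (COL1A2, COL3A1, DCN, PDGFRA) were below 1 CPM in every sample, but the list sum was 49.6 to 58.4 CPM in DMSO, 154 to 171 in etoposide and 135 to 141 in tozasertib, with LUM the highest in the treated groups. LUM and COL1A1 rose in both drugs, TWIST2, the highest of the list in DMSO at 25.5 CPM, fell in both (log2 fold change -0.55 and -0.64), and COL1A2 was not called (-0.14 and -0.16). The sum rose with many of the matrix genes described here, and its part in them was not tested. Keratinocyte markers summed to 44.3 to 67.0 CPM over all samples, nearly all of it KRT10, with 5 of 7 below 1 CPM, and endothelial markers summed to at most 1.68 CPM.

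The filter on low counts asked for 0.319 CPM, which is 10 reads at the median total, in at least 3 samples. It left 28 of the 35 genes. The other 7 were the leukocyte subunits ITGAL, ITGAM and ITGB2, the platelet subunit ITGA2B, ITGA8, ITGA9 and ITGB6. Their estimated counts ran from 0 to 23 reads in a sample, with ITGA8 at 0 in 10 of 11 samples and ITGAL and ITGB2 at 0 in 7. Among the 28, 6 genes (ITGA11, ITGAX, ITGB7, LAMA1, LAMA3 and LAMC3) reached that level in fewer than 3 DMSO samples and passed through the treated samples, so that a higher level in a treated group was a condition of being tested. Their reads are given with their results, and their calls are no support for a rise.

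In etoposide, 15 of the 28 genes rose and 4 fell. Over all genes tested, 27.7% rose and 30.6% fell in that comparison. In tozasertib 19 rose and 6 fell, beside 29.9% and 29.4% of all genes. The 6 genes that passed through the treated samples make up 4 of the 15 and 6 of the 19 that rose. The other 22, which also had that level in DMSO, held 11 genes that rose and 4 that fell in etoposide and 13 and 6 in tozasertib. The median log2 fold change of the 28 was 0.63 in etoposide and 0.70 in tozasertib, that of the 22 was 0.26 and 0.53, and over all genes tested it was -0.01 and 0.02. Levels in etoposide did not overlap those in DMSO for 18 of the 28 genes, beside 51.2% of all genes tested, and in tozasertib for 22 of the 28, beside 59.8%. Both comparisons share the DMSO samples. Side by side, 14 genes rose in both drugs, 3 (ITGA6, ITGA10 and LAMB3) fell in both, and ITGB5 rose in etoposide and fell in tozasertib. A further 5 rose in tozasertib alone among the calls (ITGA2, ITGA7, ITGAX, ITGB7, LAMA4), 2 fell there alone (ITGB3, ITGAE) and ITGA1 fell in etoposide alone. ITGB4 and ITGB8 were called in neither. The plot of log2 fold changes sets the 28 genes side by side.

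**Figure D1:**
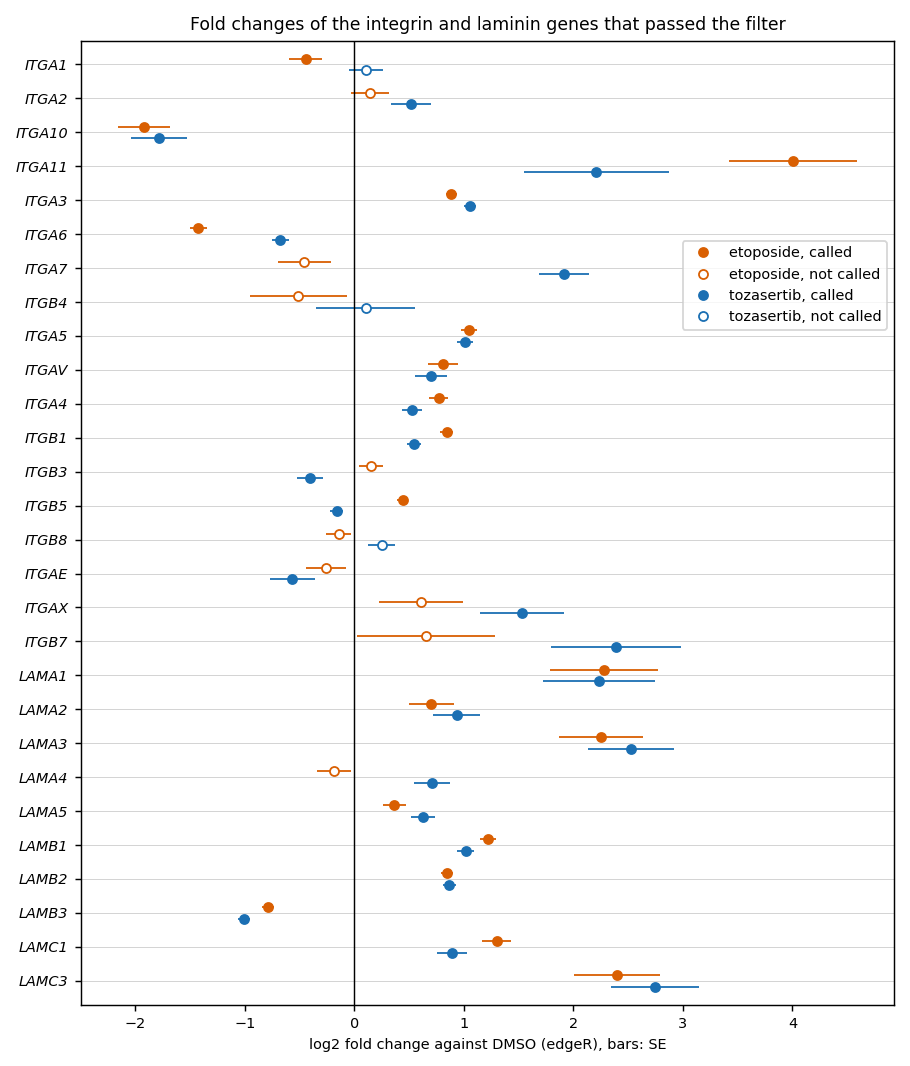
Log2 fold change against DMSO (horizontal axis, edgeR) of the 28 integrin and laminin genes that passed the filter on low counts, in etoposide and tozasertib, with bars of 1 SE. Filled points were called at an adjusted p under 0.05, open points were not, and ITGA6, ITGA10 and LAMB3 are the 3 genes with filled points left of 0 in both drugs.

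Laminin receptors changed in opposite directions. ITGA3 and ITGA6 code for the α subunits of the main laminin-binding integrins, and each pairs with the β1 subunit. ITGA3 was at 1655, 1806, 1702 and 1696 CPM in DMSO replicates 1 to 4, at 3090, 3245, 3227 and 3114 CPM in etoposide and at 3476, 3766 and 3422 CPM in tozasertib replicates 1, 2 and 4. Every treated sample was above every DMSO sample, and every tozasertib sample above every etoposide sample. ITGA3 rose by 0.89 ± 0.05 (SE) in etoposide, which is 1.85-fold (adjusted p = 1.03e-08), and by 1.05 ± 0.06 in tozasertib, which is 2.07-fold (adjusted p = 3.94e-09). The difference between the drugs, 0.17 ± 0.06 (SE), was not called (adjusted p = 0.0767) but was with library size alone (adjusted p = 0.0328) and without DMSO replicate 1 (adjusted p = 0.031).

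ITGA6 was at 343, 414, 409 and 455 CPM in DMSO, at 148, 157, 143 and 155 CPM in etoposide and at 249, 260 and 252 CPM in tozasertib. The 3 groups did not overlap, with etoposide lowest and tozasertib between etoposide and DMSO. ITGA6 fell by 1.43 on the log2 scale in etoposide (SE 0.08, 2.69-fold, adjusted p = 4.3e-09) and by 0.68 in tozasertib (SE 0.08, 1.60-fold, adjusted p = 1.08e-05). Between the drugs it was 0.75 ± 0.08 (SE) higher in tozasertib (adjusted p = 4.45e-05). On the TPM scale, where genes can be compared, ITGA3 stood at 567 ± 59.8 and ITGA6 at 131 ± 30.8 in DMSO (SD, n = 4). In etoposide these levels were 1126 ± 35.5 and 53.9 ± 2.34 TPM (SD, n = 4), and in tozasertib 1340 ± 74.2 and 97.6 ± 3.11 TPM (SD, n = 3).

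The third α subunit of this kind, ITGA7, best known from muscle, was low: 1.03 ± 0.17 CPM in DMSO, 0.735 ± 0.211 in etoposide (SD, n = 4 each) and 3.85 ± 0.66 in tozasertib (SD, n = 3). All 3 tozasertib samples (4.07, 3.12 and 4.37 CPM) were above the 8 others, of which the highest was at 1.17 CPM. ITGA7 rose by 1.91 ± 0.23 (SE) in tozasertib (3.77-fold, adjusted p = 1.14e-05), and its log2 difference in etoposide was -0.46 ± 0.24 (adjusted p = 0.123). The difference between the drugs was 2.37 ± 0.24 (SE, adjusted p = 2.46e-05). ITGB4, the β partner of the α6 subunit in hemidesmosomes, had 4 to 31 reads in a sample and was called in no comparison, with log2 differences of -0.51 ± 0.44 in etoposide and 0.10 ± 0.46 in tozasertib. These intervals (95%, from -1.38 to 0.36 and from -0.79 to 1.00) leave room for changes of more than 1.5-fold.

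The mRNAs of ITGA3 and ITGA6 each have an alternative exon near the 3′ end of the coding sequence, which decides the cytoplasmic tail of the subunit: with the exon the tail is the A form, without it the B form. The coding part of each exon is printed below because the deposited tables count the transcripts with and without it separately, so that the fall of ITGA6 and the rise of ITGA3 can be read by form, as far as transcripts could be placed. Both are from GENCODE release 44 on GRCh38, on the + strand, and capitals mark the stop codon. The ITGA6 exon is at chr2:172501772-172501879 (coding part, 108 bases of an exon of 130) and the ITGA3 exon at chr17:50088225-50088335 (111 bases of 142).
ITGA6: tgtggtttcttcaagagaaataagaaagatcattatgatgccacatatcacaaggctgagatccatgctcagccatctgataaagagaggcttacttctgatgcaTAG
ITGA3: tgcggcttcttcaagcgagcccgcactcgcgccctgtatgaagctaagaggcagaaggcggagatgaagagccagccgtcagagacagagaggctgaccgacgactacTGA

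For ITGA6, transcripts with the exon made up 62.6%, 53.9%, 55.6% and 63.4% of the TPM of transcripts that could be placed in DMSO replicates 1 to 4, 57.7%, 61.8%, 57.1% and 51.2% in etoposide, and 61.8%, 64.7% and 61.8% in tozasertib. The groups overlapped, and their means were 58.9% ± 4.82 in DMSO, 57% ± 4.37 in etoposide (SD, n = 4 each) and 62.8% ± 1.67 in tozasertib (SD, n = 3). Both forms were lower in etoposide than in every DMSO sample: 26.5 to 31.3 TPM against 53.6 to 96.4 TPM with the exon, and 19.3 to 25.3 TPM against 32.0 to 58.1 TPM without it. In tozasertib the form with the exon, at 54.7 to 57.9 TPM, lay inside the range of DMSO on this scale. The form without it, at 31.5 to 34.3 TPM, also overlapped DMSO. For ITGA3 the form with the exon made up at least 99.5% of the TPM that could be placed in every sample. That placed part was 68.5% to 76.5% of the TPM of ITGA3, so the rest of the gene is outside this share, while for ITGA6 it was 86.5% to 95.8%. These shares are Salmon's division of reads among transcripts of 1 gene and are given as a description, with no test.

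**Figure D2:**
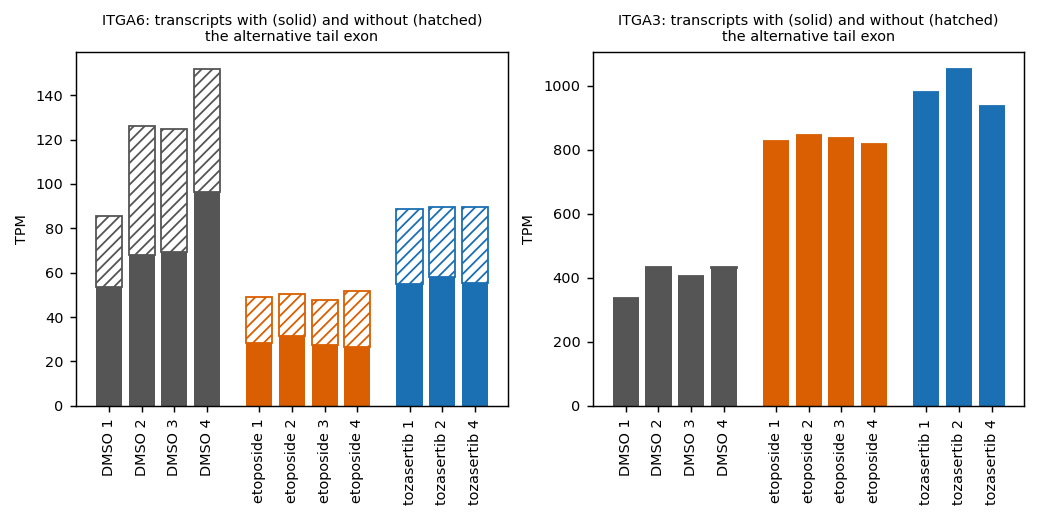
TPM (vertical axis) of ITGA6 and ITGA3 transcripts with the alternative tail exon (solid) and without it (hatched), 1 bar per sample, coloured by group. For ITGA6 both parts of the bar are shorter in every etoposide sample than in any DMSO sample, and for ITGA3 the hatched part, at most 2.15 TPM, is too small to see.

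ITGB1 codes for the β1 subunit, the shared partner of the collagen, laminin and fibronectin receptors. It was at 1365, 1504, 1451 and 1512 CPM in DMSO, at 2372, 2613, 2711 and 2763 CPM in etoposide and at 2019, 2125 and 2221 CPM in tozasertib. The 3 groups did not overlap, and etoposide was highest. ITGB1 rose by 0.84 ± 0.06 (SE) in etoposide (adjusted p = 8.14e-08) and by 0.54 ± 0.07 in tozasertib (adjusted p = 1.15e-05), and was lower in tozasertib than in etoposide (log2 difference -0.30 ± 0.07, adjusted p = 0.01). That last call was lost without tozasertib replicate 1 (adjusted p = 0.0698). ITGB1 made up 81.6% ± 0.912 of the summed TPM of the 8 β subunits in DMSO, 87.5% ± 0.782 in etoposide (SD, n = 4 each) and 86.4% ± 0.842 in tozasertib (SD, n = 3).

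Both tested α subunits of receptors for fibronectin and other proteins with an RGD sequence rose in both drugs. ITGA5, the α subunit of the classical fibronectin receptor, was at 246, 260, 274 and 292 CPM in DMSO, at 508, 525, 587 and 596 CPM in etoposide and at 519, 535 and 566 CPM in tozasertib. The treated samples were all above DMSO and the drugs overlapped. ITGA5 rose by 1.05 ± 0.07 (SE) in etoposide (2.07-fold, adjusted p = 3.59e-08) and by 1.01 ± 0.07 in tozasertib (2.02-fold, adjusted p = 9.85e-08), and the difference between the drugs had a 95% interval from -0.18 to 0.11.

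ITGAV, the α subunit that pairs with several β subunits to bind vitronectin, fibronectin and latent TGF-β, was at 112, 158, 159 and 199 CPM in DMSO, at 241, 270, 279 and 308 CPM in etoposide and at 234, 252 and 278 CPM in tozasertib. No treated sample fell in the DMSO range. It rose by 0.81 ± 0.14 (SE) in etoposide (adjusted p = 0.000213) and by 0.70 ± 0.15 in tozasertib (adjusted p = 0.00113). DMSO replicate 1 was the lowest and DMSO replicate 4 the highest of the controls. They also were for ITGA1, ITGA2, ITGA4, ITGA5, ITGA6, ITGA10, ITGB1, ITGB3, ITGB8, LAMA4, LAMB1, LAMC1 and LAMC3. In these 2 samples the deviation of a gene from its DMSO mean went with gene length over all genes tested (Spearman rho -0.478 in replicate 1 and 0.403 in replicate 4, and -0.077 to 0.223 in the others). With that trend removed ITGAV still rose, by 0.79 in etoposide and 0.64 in tozasertib on the log2 scale.

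ITGA4, whose subunit binds VCAM1 and fibronectin, was at 188, 231, 224 and 252 CPM in DMSO, at 393, 412, 360 and 358 CPM in etoposide and at 332, 333 and 300 CPM in tozasertib. The 3 groups did not overlap. It rose by 0.77 ± 0.08 (SE) in etoposide (adjusted p = 3.91e-06) and by 0.53 ± 0.09 in tozasertib (adjusted p = 0.000219), and the difference between the drugs was not called (-0.24 ± 0.09, adjusted p = 0.11). It was called under 7 alternatives, among them DESeq2 (adjusted p = 0.0349), the length trend removed (adjusted p = 0.00826) and without DMSO replicate 1 (adjusted p = 0.0155).

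The β partners of the αV subunit did not move together. ITGB5, whose product with αV binds vitronectin, was at 183, 174, 173 and 171 CPM in DMSO, at 224, 238, 246 and 245 CPM in etoposide and at 150, 158 and 162 CPM in tozasertib. Etoposide was above and tozasertib below every DMSO sample. ITGB5 rose by 0.44 ± 0.05 (SE) in etoposide (1.36-fold, adjusted p = 7.48e-06), and the fall in tozasertib was small, -0.16 ± 0.06 (1.12-fold, adjusted p = 0.0224). That fall was -0.07 with library size alone as the scaling (adjusted p = 0.216), and it was also not called without tozasertib replicate 1 (-0.14, adjusted p = 0.112), without tozasertib replicate 2 (-0.17, adjusted p = 0.0524), with no filter (-0.17, adjusted p = 0.0933) or with counts rescaled by transcript length (-0.20, adjusted p = 0.0876). The difference between the drugs, -0.60 ± 0.06 (SE, adjusted p = 1.51e-05), was called under every alternative.

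ITGB3, the β subunit of the vitronectin receptor that is a marker of invasive melanoma, was at 40.2, 41.2, 49.4 and 52.5 CPM in DMSO, at 56.5, 56.3, 47.3 and 43.1 CPM in etoposide and at 36.0, 36.6 and 31.1 CPM in tozasertib. Tozasertib was below both other groups, which overlapped each other. Its log2 difference was 0.15 ± 0.11 (SE) in etoposide (adjusted p = 0.254) and it fell by 0.41 (SE 0.12, adjusted p = 0.00967) in tozasertib, a call lost with library size alone (-0.32, adjusted p = 0.0502). Against etoposide it was lower in tozasertib (log2 difference -0.56 ± 0.12, adjusted p = 0.00817). ITGB8, which with αV activates latent TGF-β, spread from 251 to 413 CPM in DMSO, a range that holds all 4 etoposide samples (288 to 333 CPM) and overlaps tozasertib (388 to 423 CPM). It was called in no comparison, with log2 differences of -0.15 ± 0.12 and 0.25 ± 0.13 (SE) against DMSO and of 0.39 ± 0.13 between the drugs (adjusted p = 0.0621), which did not overlap. These missed calls depended on the fit. The difference between the drugs was called under 8 alternatives, among them DESeq2 (adjusted p = 0.0391), the length trend removed (adjusted p = 0.00595), without DMSO replicate 1 (adjusted p = 0.00127) and without DMSO replicate 4 (adjusted p = 0.0272). Against DMSO, etoposide was called lower without DMSO replicate 1 (-0.27, adjusted p = 0.00315) and tozasertib higher without DMSO replicate 4 (0.36, adjusted p = 0.0179). The plot of CPM by sample shows ITGB5 and ITGB3, but not ITGB8, beside other integrins and some of the laminin chains described below.

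**Figure D3:**
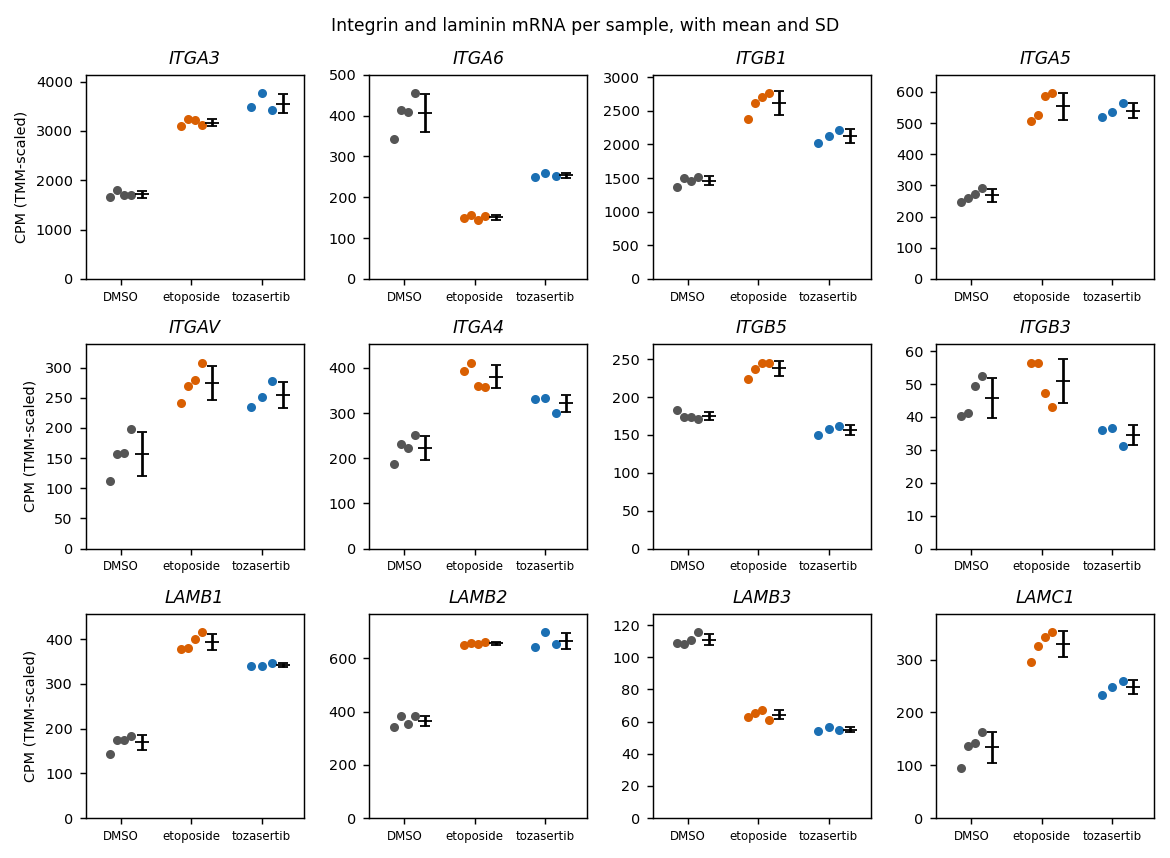
CPM (vertical axes from 0, TMM-scaled) of 8 integrin and 4 laminin genes in each sample, by group, with the mean and SD beside the points. LAMB3 and ITGA6 are lower in every treated sample than in any DMSO sample, and ITGB5 lies above DMSO in etoposide and below it in tozasertib.

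Of the collagen receptors, ITGA10, whose product is known from cartilage, fell in both drugs. It was at 4.80, 8.07, 6.67 and 8.19 CPM in DMSO, at 2.47, 1.52, 1.18 and 2.10 CPM in etoposide and at 2.41, 1.72 and 1.82 CPM in tozasertib. Every treated sample was below every DMSO sample, and the drugs overlapped. The log2 fold change was -1.92 ± 0.24 (SE) in etoposide (3.80-fold lower, adjusted p = 1.17e-05) and -1.79 ± 0.26 in tozasertib (3.45-fold lower, adjusted p = 5.12e-05).

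ITGA11, the α subunit of a collagen receptor of fibroblasts, had 1, 1, 7 and 0 reads in the DMSO samples, 31, 46, 53 and 38 in etoposide and 24, 6 and 16 in tozasertib. Etoposide was above all other samples, and tozasertib replicate 2, at 0.210 CPM, was just below DMSO replicate 3, at 0.218 CPM. ITGA11 rose by 4.01 ± 0.59 (SE, adjusted p = 5.73e-05) in etoposide and by 2.21 ± 0.67 (adjusted p = 0.0117) in tozasertib, where the call was lost without DMSO replicates 1 and 4 (1.43, adjusted p = 0.0799) and with counts rescaled by transcript length (0.52, adjusted p = 0.684). With 9 reads in all of DMSO, the size of these fold changes is uncertain. Between the drugs ITGA11 was lower in tozasertib (-1.80 ± 0.50, adjusted p = 0.0345), a call that was lost without any 1 of tozasertib replicates 1, 2 and 4 or etoposide replicates 2, 3 and 4 (adjusted p from 0.0714 to 0.145). That call was also lost with a block for the replicate number (-1.52, adjusted p = 0.114).

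ITGA1 and ITGA2, which code for α subunits of the common collagen receptors, are neighbours on chromosome 5, 30130 bases apart. ITGA1 was at 22.6 ± 4.76 CPM in DMSO, 16.6 ± 2.83 in etoposide (SD, n = 4 each) and 24.3 ± 1.99 in tozasertib (SD, n = 3), and its groups overlapped except for the 2 drugs. It fell by 0.45 (SE 0.15, adjusted p = 0.0217) in etoposide, a call lost without DMSO replicate 4 (-0.34, adjusted p = 0.0682), etoposide replicate 3 (-0.40, adjusted p = 0.0586) or etoposide replicate 4 (-0.37, adjusted p = 0.0643). From 56.8% to 78.8% of its TPM in a sample lay on a transcript annotated as a target of nonsense-mediated decay. ITGA2 was at 68.9 ± 21.6 CPM in DMSO, 76.1 ± 6.07 in etoposide (SD, n = 4 each) and 98.7 ± 5.52 in tozasertib (SD, n = 3). It rose by 0.52 ± 0.18 (SE, adjusted p = 0.0253) in tozasertib, though DMSO replicate 4, at 95.3 CPM, was above tozasertib replicate 4, at 92.7 CPM. That call was lost without DMSO replicate 2 (0.47, adjusted p = 0.0646), tozasertib replicate 1 (0.48, adjusted p = 0.0784) or tozasertib replicate 2 (0.51, adjusted p = 0.0623). In etoposide its log2 difference was 0.14 ± 0.17 (adjusted p = 0.491).

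Subunits known from leukocytes were low. ITGAX, which with the β2 subunit binds complement fragments, had 5 to 12 reads in the DMSO samples, 8 to 21 in etoposide and 51, 25 and 25 in tozasertib. It rose in tozasertib by 1.53 ± 0.39 (SE, adjusted p = 0.00394), and with counts rescaled by transcript length that value was -0.32 (adjusted p = 0.629), the opposite sign. ITGB7, the β subunit of gut-homing lymphocytes, had 8, 0, 5 and 9 reads in DMSO, 11, 15, 12 and 2 in etoposide and 67, 26 and 32 in tozasertib. It rose in tozasertib by 2.39 ± 0.60 (SE, adjusted p = 0.00376), a call lost with counts rescaled by length (1.08, adjusted p = 0.349). In etoposide neither was called (0.61 ± 0.39 for ITGAX and 0.65 ± 0.63 for ITGB7). ITGAE, the α subunit of resident T cells, was at 11.5 ± 3.65 CPM in DMSO, 9.57 ± 0.40 in etoposide (SD, n = 4 each) and 7.77 ± 1.46 in tozasertib (SD, n = 3). From 73.6% to 89.9% of its TPM in a sample lay on a transcript of 672 bases with no annotated coding sequence. It fell by 0.57 (SE 0.20, adjusted p = 0.0275) in tozasertib, a call lost with the length trend removed (-0.22, adjusted p = 0.193) and without DMSO replicate 1 (-0.35, adjusted p = 0.057), tozasertib replicate 1 (-0.45, adjusted p = 0.122) or tozasertib replicate 2 (-0.55, adjusted p = 0.0743).

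Among the laminins, 8 of the 10 chains rose and 1 fell in etoposide, and 9 rose and 1 fell in tozasertib. The shares over all genes, given above, were 27.7% and 30.6% in etoposide and 29.9% and 29.4% in tozasertib. The chain that fell in both was LAMB3, and 3 of those that rose (LAMA1, LAMA3 and LAMC3) passed the filter through the treated samples. Of the γ chains, LAMC1, which is part of most laminins, was at 93.9, 136, 142 and 163 CPM in DMSO, at 295, 325, 343 and 352 CPM in etoposide and at 233, 249 and 260 CPM in tozasertib. The 3 groups did not overlap, with etoposide highest. LAMC1 rose by 1.30 ± 0.13 (SE) in etoposide (2.46-fold, adjusted p = 1.66e-06) and by 0.89 ± 0.14 in tozasertib (1.85-fold, adjusted p = 9.68e-05). The difference between the drugs (-0.41 ± 0.14, adjusted p = 0.0786) was not called here but was under several alternatives, among them without DMSO replicate 1 (adjusted p = 0.0018), without DMSO replicate 4 (adjusted p = 0.0443) and with DESeq2 (adjusted p = 0.0208). LAMC3 had 2 to 6 reads in the DMSO samples, 19 to 33 in etoposide and 20 to 56 in tozasertib. It rose by 2.40 ± 0.39 (SE, adjusted p = 0.00016) and 2.74 ± 0.40 (adjusted p = 6.28e-05), and the call in etoposide was lost with counts rescaled by length (0.94, adjusted p = 0.166).

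LAMB1 and LAMB2 code for the β chains of the widespread laminins. LAMB1 was at 144, 174, 173 and 184 CPM in DMSO, at 378, 380, 400 and 415 CPM in etoposide and at 339, 340 and 346 CPM in tozasertib. LAMB2 was at 342, 382, 352 and 382 CPM in DMSO, at 650, 660, 655 and 661 CPM in etoposide and at 643, 698 and 654 CPM in tozasertib. For both genes every treated sample was above every DMSO sample. LAMB1 rose by 1.22 ± 0.07 (SE) in etoposide (2.33-fold, adjusted p = 1.07e-08) and by 1.02 ± 0.08 in tozasertib (2.02-fold, adjusted p = 1.1e-07). LAMB2 rose by 0.85 ± 0.05 (SE) in etoposide (1.80-fold, adjusted p = 1.95e-08) and by 0.87 ± 0.06 in tozasertib (1.82-fold, adjusted p = 3e-08), with a 95% interval of the difference between the drugs from -0.09 to 0.13.

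LAMB3, the β chain of the epithelial laminin that anchors the epidermis, went the other way. It was at 109, 109, 111 and 116 CPM in DMSO, at 63.1, 65.7, 67.4 and 60.8 CPM in etoposide and at 53.9, 56.5 and 54.8 CPM in tozasertib. The 3 groups did not overlap. Its log2 fold change was -0.79 ± 0.05 (SE) in etoposide (1.73-fold lower, adjusted p = 2.61e-08) and -1.01 ± 0.06 in tozasertib (2.02-fold lower, adjusted p = 6.58e-09). The difference between the drugs (-0.22 ± 0.06, adjusted p = 0.0198) was lost when any 1 of etoposide replicates 2 and 3 or tozasertib replicates 1, 2 and 4 was left out (adjusted p from 0.0577 to 0.109), and also with library size alone (adjusted p = 0.071), with no filter (adjusted p = 0.083) and with counts rescaled by length (adjusted p = 0.117). A block for the replicate number lost it too (-0.21, adjusted p = 0.0555).

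The α chains, which carry the main integrin-binding part of a laminin, were the lowest class. Their 5 genes summed to 6.10 ± 0.78 TPM in DMSO, 6.57 ± 1.40 in etoposide (SD, n = 4 each) and 9.75 ± 0.39 in tozasertib (SD, n = 3). The 3 β chains summed to 318 ± 20.9, 498 ± 23.5 and 502 ± 22.5 TPM in DMSO, etoposide and tozasertib, and the 2 γ chains to 26.6 ± 7.71, 69.9 ± 4.60 and 57.6 ± 2.83 TPM (SD, same n). These sums include short transcripts annotated as retained introns. In DMSO, etoposide and tozasertib such a transcript held on average 24.5%, 16.4% and 13.9% of the TPM of LAMB2 (1021 bases). For LAMB1 it held 20.3%, 13.4% and 7.21% (2328 bases), and for LAMA5 30.3%, 14.7% and 8.43% (780 bases). LAMA4, found in vessels and muscle, was at 6.43 ± 1.05 CPM in DMSO, 5.66 ± 0.84 in etoposide (SD, n = 4 each) and 10.5 ± 1.94 in tozasertib (SD, n = 3), where every sample was above the 8 others. It rose in tozasertib by 0.71 ± 0.16 (SE, adjusted p = 0.00207), its log2 difference in etoposide was -0.18 ± 0.16 (adjusted p = 0.332), and the drugs differed by 0.89 ± 0.16 (adjusted p = 0.00309). LAMA5, the α chain of many adult basement membranes, was at 7.93 ± 0.61, 10.2 ± 1.40 and 12.2 ± 0.22 CPM, and rose by 0.36 ± 0.10 in etoposide (SE, adjusted p = 0.00808) and by 0.63 ± 0.11 in tozasertib (adjusted p = 0.000266).

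LAMA2, the α chain of muscle and nerve, had 33 to 54 reads in the DMSO samples and 61 to 137 in the treated ones, with no overlap in CPM. It rose by 0.70 ± 0.20 (SE, adjusted p = 0.00927) and 0.93 ± 0.21 (adjusted p = 0.00213) in etoposide and tozasertib. LAMA3, the α chain of the laminin that holds LAMB3, had 5, 13, 3 and 7 reads in DMSO, 45, 29, 54 and 29 in etoposide and 89, 46 and 38 in tozasertib, and rose by 2.25 ± 0.38 (SE, adjusted p = 0.000201) and 2.53 ± 0.39 (adjusted p = 0.000103). LAMA1, an embryonic α chain, had 5, 0, 6 and 4 reads in DMSO, 19, 17, 28 and 20 in etoposide and 40, 12 and 25 in tozasertib, and rose by 2.28 ± 0.50 (SE, adjusted p = 0.00144) and 2.23 ± 0.51 (adjusted p = 0.00222). With counts rescaled by transcript length, which divide these few reads among transcripts of very different length, no call remained for LAMA2 (-0.16, adjusted p = 0.744 in etoposide, and 0.07, adjusted p = 0.902 in tozasertib) or LAMA3 (1.11, adjusted p = 0.281, and 0.49, adjusted p = 0.667). The calls of LAMA5 (0.30, adjusted p = 0.293, and 0.52, adjusted p = 0.0859) and of LAMA4 in tozasertib (0.38, adjusted p = 0.273) were lost in the same way. LAMA1 and LAMA3, like ITGA11, ITGAX, ITGB7 and LAMC3 above, passed the filter only through the treated samples. The calls of these genes, under whatever alternative, are no support for a rise.

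In DMSO the order of levels per length began with ITGB1 (699 ± 110 TPM), ITGA3 (567 ± 59.8), LAMB2 (213 ± 20.8), ITGA6 (131 ± 30.8) and ITGA5 (96.0 ± 8.11; SD, n = 4 each). ITGB1 overlapped ITGA3 and ITGA6 overlapped ITGA5, while ITGA3 and LAMB2 stood apart from the gene below them. In etoposide the first 6 were ITGB1, ITGA3, LAMB2, ITGA5, LAMB1 and ITGA4, with ITGA6 in the 11th place. In tozasertib ITGA3 (1340 ± 74.2 TPM) overlapped ITGB1 (1207 ± 59.2; SD, n = 3), and ITGA6 was 8th. ITGA3 made up 58.9% ± 3.72 of the summed TPM of the 17 α subunits in DMSO, 67.7% ± 1.14 in etoposide (SD, n = 4 each) and 69.8% ± 1.41 in tozasertib (SD, n = 3). LAMB2 made up 66.9% ± 3.85, 66.3% ± 1.62 and 70.4% ± 1.16 of the 3 β chains, and LAMC1 over 99% of the 2 γ chains in every sample.

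**Figure D4:**
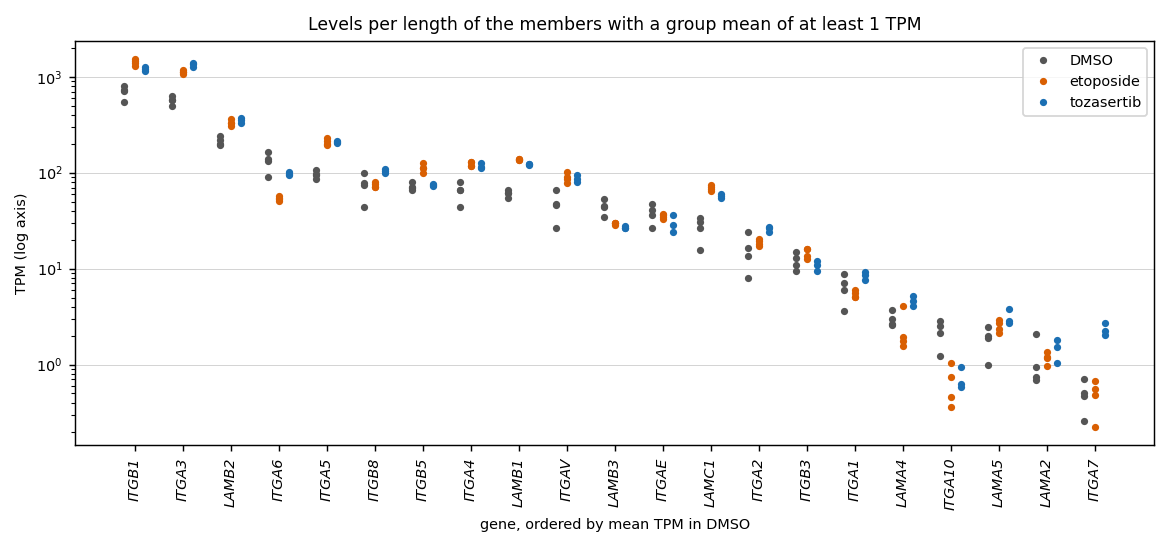
TPM (vertical log axis) of the 21 members with a group mean of at least 1 TPM, ordered by their mean in DMSO, with 1 point per sample coloured by group. ITGB1 and ITGA3 stand above the other genes in every group, and the laminin α chains LAMA4, LAMA5 and LAMA2 lie well below LAMB2, LAMB1 and LAMC1.

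Compared directly, tozasertib and etoposide differed for 9 of the 28 genes, 4 of them higher in tozasertib (ITGA1, ITGA6, ITGA7, LAMA4) and 5 lower (ITGA11, ITGB1, ITGB3, ITGB5, LAMB3), beside 5.66% and 5.45% of all genes tested. ITGA1 was 0.55 ± 0.16 (SE) higher in tozasertib (adjusted p = 0.0424), a call lost without any 1 of 8 samples (adjusted p from 0.0589 to 0.154): DMSO replicates 2 and 3, etoposide replicates 1, 3 and 4 and all 3 of tozasertib. That call was also lost with a block for the replicate number (0.54, adjusted p = 0.0861). A further 8 genes (ITGA2, ITGA3, ITGA4, ITGAX, ITGB7, ITGB8, LAMB1 and LAMC1) were called in this comparison under at least 1 alternative. The counts moved with the samples used: 8 higher and 8 lower without DMSO replicate 1, 2 lower without tozasertib replicate 1, and 3 lower without any 1 of tozasertib replicates 2 and 4 or etoposide replicates 2 and 3.

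The starts of 4 genes that moved without overlap in both drugs are printed to show what lies there: LAMC1 and ITGA5, which rose, and LAMB3 and ITGA6, which fell, chosen after their values were seen. Each line is the 150 bases before a RefSeq start on GRCh38.p14, 5′ to 3′ on the strand of the gene, outside the annotated gene, and capitals mark matches to the motifs searched. The windows are chr1:183023270-183023419 (+ strand) for LAMC1, chr12:54419267-54419416 (- strand) for ITGA5, chr1:209652426-209652575 (- strand) for LAMB3 and chr2:172427186-172427335 (+ strand) for ITGA6.
LAMC1: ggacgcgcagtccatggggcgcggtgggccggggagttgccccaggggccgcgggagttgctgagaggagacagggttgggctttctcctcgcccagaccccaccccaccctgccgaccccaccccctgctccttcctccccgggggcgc
ITGA5: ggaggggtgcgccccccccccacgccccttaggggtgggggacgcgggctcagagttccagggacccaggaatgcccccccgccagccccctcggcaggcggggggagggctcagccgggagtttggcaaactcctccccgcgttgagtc
LAMB3: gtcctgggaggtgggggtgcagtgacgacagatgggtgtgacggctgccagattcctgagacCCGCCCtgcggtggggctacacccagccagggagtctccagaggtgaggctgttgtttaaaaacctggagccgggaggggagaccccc
ITGA6: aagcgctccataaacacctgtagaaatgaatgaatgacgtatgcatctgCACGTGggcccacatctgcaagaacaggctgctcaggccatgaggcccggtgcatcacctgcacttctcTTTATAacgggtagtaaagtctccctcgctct

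Both windows of genes that rose are rich in G and C (74.7% each), against 64.7% for LAMB3 and 51.3% for ITGA6. Motifs were searched on both strands of the 250 bases before each start, and their letters are such that none can match inside another: the GC box GGGCGG, the AP-1 site TGANTCA, the E box CACGTG, the M box CATGTG, the TATA box TATAAA and the CCAAT box CCAAT. RefSeq starts were found for 25 of the 35 genes, 32 windows in all. Some matches of the 4 genes shown lie outside the printed bases. These are a GC box for LAMC1, ITGA5 and ITGA6, and an AP-1 site and a CCAAT box for LAMB3. The GC box lay in 17 of the 32 windows, beside 42.6% of 35116 windows over all genes, and the AP-1 site in 2 (LAMA3 and LAMB3), beside 6.57%. The E box lay in 1 window (ITGA6, beside 6.34%), the M box in 3 (beside 9.42%), the TATA box in 2 (beside 10.7%) and the CCAAT box in 4 (beside 32%). These are matches of letters, and no test was made of them.

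Partner genes were described from 3 lists. Of 18 basement membrane partners and other laminin receptors, all tested, 14 rose and 3 fell in etoposide and 13 rose and 3 fell in tozasertib, with median log2 fold changes of 1.11 and 0.82. For this list and the next 2, the shares of all genes that rose and fell were 27.7% and 30.6% in etoposide and 29.9% and 29.4% in tozasertib. The type IV collagen chain COL4A1 went from 76.0 ± 13.2 CPM in DMSO to 813 ± 79.4 in etoposide (SD, n = 4 each) and 408 ± 21.1 in tozasertib (SD, n = 3), a rise of 3.42 ± 0.12 (SE, adjusted p = 1.18e-10) and 2.42 ± 0.12 (adjusted p = 2.67e-09). The proteoglycan perlecan, HSPG2, rose by 3.11 (adjusted p = 7.41e-10) and 2.88 (adjusted p = 1.85e-09). Agrin, AGRN, which links laminin to the cell surface, rose by 1.15 and 1.51, the netrin NTN4, which binds laminin γ chains, by 1.93 and 1.46, and the matrix protein SPARC by 1.47 and 1.24. The 3 that fell in both drugs were laminin receptors that are not integrins: DAG1, coding for dystroglycan (-1.22 and -0.68, adjusted p = 4.48e-08 and 2.62e-05), RPSA, coding for a ribosomal protein that also binds laminin (-0.58 and -0.96), and BCAM (-0.33 and -0.35). The syndecan genes of the same list rose in both drugs: SDC1 (1.20 and 0.84), SDC2 (0.97 and 0.40) and SDC4 (0.77 and 0.64). NID2 in both drugs and COL15A1 in tozasertib were not called. COL15A1, which rose in etoposide and is counted in the medians, was at 0.249 to 0.311 CPM in DMSO, below the filter level. It was tested through the treated samples, so that call is no support for a rise.

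Of 22 other integrin ligands, 16 were tested. In etoposide 11 rose and 3 fell, and in tozasertib 12 rose and 1 fell, with medians of 1.22 and 1.64. POSTN and VTN, counted among those that rose in both and in these medians, were at most at 0.101 and 0.213 CPM in DMSO. Both were below the filter level in every DMSO sample and were tested through the treated samples, so their calls are no support for a rise. Fibronectin, FN1, the ligand of the receptor that holds ITGA5, went from 154 ± 32.1 CPM in DMSO to 688 ± 41.0 in etoposide (SD, n = 4 each) and 603 ± 15.1 in tozasertib (SD, n = 3), a rise of 2.16 (adjusted p = 9.31e-09) and 1.97 (adjusted p = 3.27e-08). EDIL3, an RGD protein bound by αV integrins, rose by 2.34 and 1.76, COL1A1, which is also one of the fibroblast markers above, by 3.32 and 2.38, and TGFBI by 1.09 and 0.96. Osteopontin, SPP1, rose by 1.34 (adjusted p = 2.34e-07) and 1.9 (adjusted p = 1.41e-08). ECM1 fell in both drugs (-0.71 and -0.35), while tenascin, TNC, fell in etoposide (-0.77, adjusted p = 0.000815) and was not called in tozasertib (-0.27, adjusted p = 0.185). THBS2 fell in etoposide (-0.30) and rose in tozasertib (0.36), and the drugs differed by 0.66 (adjusted p = 0.000194).

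The last list holds partners that act mainly inside the cell or in its membrane. Of 29 integrin activators and adhesion adaptors, all tested, 5 rose and 13 fell in etoposide and 3 rose and 14 fell in tozasertib, with medians of -0.10 and -0.22. That is 13 and 14 of 29 that fell, beside 30.6% and 29.4% of all genes. Paxillin, PXN, a scaffold of focal adhesions, went from 369 ± 3.26 CPM in DMSO to 219 ± 5.59 in etoposide (SD, n = 4 each) and 221 ± 1.34 in tozasertib (SD, n = 3), and fell in both drugs (log2 fold change -0.75, adjusted p = 9.48e-09, and -0.74, adjusted p = 2.43e-08). ITGB1BP1, which binds the tail of the β1 subunit and restrains it, fell as well (-0.46 and -0.78), and so did the tetraspanin CD9 (-0.68 and -0.36). The kinase gene PTK2B rose in both (1.12 and 1.63), as did the tensin TNS3 (0.46 and 0.41). In etoposide alone among the calls TLN2 (0.57), CD151 (0.42), the tetraspanin partner of laminin-binding integrins, and VCL (0.24) rose. TNS1 rose in tozasertib alone (2.29, adjusted p = 9.55e-05), from 0.440 ± 0.187 CPM in DMSO to 2.17 ± 0.25 (SD). In DMSO it was near the filter level, at 0.242, 0.320, 0.592 and 0.607 CPM. The filter acts before TMM scaling, and there TNS1 reached its level in fewer than 3 DMSO samples. TNS1, counted among the 3 that rose in tozasertib and in the medians, was thus tested through the treated samples. Its call is no support for a rise. TLN1, the main talin, was not called, with 0.01 and 0.08. VCL fell in tozasertib (-0.24, adjusted p = 0.0433).

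**Figure D5:**
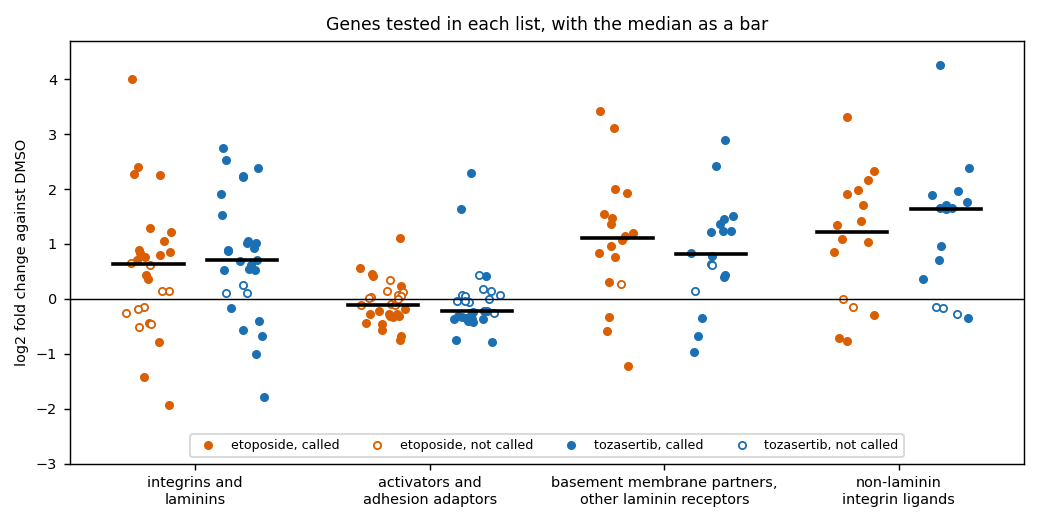
Log2 fold change against DMSO (vertical axis) of each tested gene among the integrins and laminins and in the 3 partner lists, in etoposide and tozasertib, with the median as a bar. Filled points were called. The medians of the basement membrane partners are 1.11 and 0.82 and those of the activators and adaptors -0.10 and -0.22.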

How the data were processed

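RNA of 11 samples was sequenced from poly(A)-selected, directional libraries as single-end reads. By the submitters' processing notes the build was GRCh38 and the tools were Salmon 1.9.0, cutadapt 4.7, DESeq2 1.40.2 and R 4.4.2. The study's methods name another aligner. Salmon's options and its transcript release were not given in the sources used here. The deposited tables hold, per transcript, the authors' estimated counts (expected counts, not whole and not normalized), the authors' TPM, and effective lengths.

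Transcripts were joined to GENCODE release 44 by versioned identifier. Of 251645 transcripts, 907, with 0.318% to 0.359% of a sample's reads, had no match and were not used. For each gene the estimated counts were added up, over 61542 genes, and rounded. TPM was summed over transcripts. The main test was edgeR 4.0.16 (quasi-likelihood, two-sided, TMM scaling, 1 mean per group over all 11 samples, filterByExpr, Benjamini-Hochberg adjustment) in R 4.3.3, run on the sums as deposited apart from rounding. SE is the log2 fold change over the root of F, and intervals are ± 1.96 SE. Replicates differed by more than sampling noise in every group. Totals of 27882689 to 56534763 reads set the precision, and a count of 0 allows up to 3 reads, which is 0.0533 to 0.108 CPM. The scripts were tested on simulated counts.

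The members and the gene lists were chosen with earlier results of these data known. Named were all members and, from each partner list, up to 4 called genes with the smallest adjusted p in each drug, plus those called in a direction that held 5 or fewer. Also named were SDC1, SDC2, SDC4, COL15A1, POSTN and VTN. Same-numbered replicates did not all deviate together (correlations of deviations from -0.095 to 0.227), so the numbers were not taken as pairs. Between the 2 drugs the same-numbered correlations were all positive, at 0.227, 0.091 and 0.123. Those between different numbers of the 2 drugs ran from -0.207 to 0.16. Alternatives were other scalings, DESeq2 1.42.0, no filter, a replicate block, only the groups compared, counts rescaled by transcript length (TPM times mean effective length), removal of the length trend, and leaving out samples. Tozasertib replicate 3 was not analysed here.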

Additional observations from a re-analysis of the deposited data

Results flagged for a closer look

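Of 56 checks for a sample far from the rest of its group (28 genes in DMSO and in etoposide, 4 samples each), 1 gave a result, and chance gives about 1 in 20. LAMA1 in DMSO replicate 2 stood at 0.0 CPM, below the other DMSO samples at 0.135 to 0.187 CPM, which are 4 to 6 reads each.

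The direct comparison of the drugs gave 9 genes whose change differed between etoposide and tozasertib by the edgeR test. The log2 difference of tozasertib against etoposide was 2.371 for ITGA7, 0.892 for LAMA4, 0.751 for ITGA6 and 0.551 for ITGA1, which were higher in tozasertib. It was -0.604 for ITGB5, -0.558 for ITGB3, -0.302 for ITGB1, -0.222 for LAMB3 and -1.798 for ITGA11, which were lower. Of these, 4 (ITGA6, ITGA7, ITGB3 and ITGB5) were called under every alternative.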

How the results depend on the processing

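The 28 genes were refitted under 21 alternatives, giving 1762 values. Of these 1642 kept their direction and side of the threshold, 63 lost a call, 55 gained one and 2 changed sign, both with counts rescaled by transcript length: LAMA2 in etoposide (-0.162) and ITGAX in tozasertib (-0.324). The cause was not tested. A further 27 uncalled values changed sign. Calls held under every alternative for 14 of 19 genes in etoposide, 14 of 25 in tozasertib and 4 of 9 between the drugs. Those held include ITGA11 and LAMA1 in etoposide and LAMA1 and LAMC3 in tozasertib. These passed the filter only through the treated samples, so that their held calls are no support for a rise. The counts that rose and fell in etoposide, and fell in tozasertib, stayed within 1.5 times of 15, 4 and 6. The 19 that rose in tozasertib were 12 with counts rescaled by length. Between the drugs, the 4 genes higher in tozasertib were 7 with no filter, 2 with counts rescaled by length, 8 with only the 2 groups compared, 8 without DMSO replicates 1 and 4, and 3 to 8 when 1 sample was left out. The 5 lower were 8 with the DESeq2 Wald test, 8 with the length trend removed, 8 with only the 2 groups compared, 8 without DMSO replicates 1 and 4, and 2 to 8 when 1 sample was left out. With the replicate block, whose numbers are only shared numbers, counts were 15 and 4 in etoposide, 19 and 6 in tozasertib, and 3 and 4 between the drugs, where ITGA1 (adjusted p = 0.0861), ITGA11 (adjusted p = 0.114) and LAMB3 (adjusted p = 0.0555) lost their call and LAMC1 (adjusted p = 0.0494) gained one. Deviations of same-numbered etoposide and tozasertib samples correlated at 0.227, 0.091 and 0.123, but tozasertib replicate 4 correlated more with etoposide replicate 3 (0.16) than with replicate 4. Over all genes the DESeq2 Wald test called 1034 higher and 1550 lower between the drugs, against 964 and 929 with edgeR. With library size alone the median of all genes in tozasertib moved from 0.02 to 0.11. Genes with few reads (ITGA11, ITGAX, ITGB4, ITGB7, LAMA1, LAMA3, LAMC3) give wide intervals, and a missed threshold there does not show equal levels.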
